A study of Homo sapiens with 6 samples.

Results

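The genes described here are the Wnt ligands and the proteins that receive, block and adjust their signal in DU-145 cells, a line from human prostate cancer. They were taken from the count table by name, as every gene named WNT or FZD with a number (and an A or B where present), together with 16 genes listed by symbol. This gave 45 genes of 60662, which fall into 19 ligands, 10 Frizzled receptors, 5 co-receptors and alternative receptors, 3 secreted inhibitors, 3 nuclear factors, and 5 feedback genes and R-spondin receptors. Of the 45, 38 had 10 or more reads in 3 libraries.

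Cultures with doxycycline (DOX-positive, n = 3) were set against cultures with vehicle (DOX-negative, n = 3). All carried tet-MUCshRNA, a stable vector in which DOX switches on a short hairpin RNA against the mucin gene MUC1. DOX or vehicle was given for 7 days, and the cells of both arms were stimulated with IFN-g (interferon gamma, 10 ng/ml, 24 hours). MUC1 itself had 1.53, 1.31 and 1.32 CPM in DOX-positive cells, against 20.4, 21.8 and 22.2 CPM in DOX-negative cells, which goes with the labels (CPM is the read count divided by the TMM-scaled library size). Unstimulated cells, and a control hairpin under DOX, were not analysed here, so DOX, the hairpin and the loss of MUC1 cannot be told apart.

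Wnt proteins are secreted, lipid-modified ligands that bind Frizzled receptors. With the co-receptors LRP5 and LRP6, Frizzled binding stops the destruction complex from degrading beta-catenin, which then acts with TCF and LEF factors on target genes, while ROR1, ROR2 and RYK carry beta-catenin-independent signals. The pathway holds itself in check: AXIN2 is a target that rebuilds the destruction complex, ZNRF3 and RNF43 are ubiquitin ligases that take Frizzled receptors off the cell surface, and R-spondins acting through LGR4 or LGR5 block those ligases. In prostate cancer the pathway has been studied for its part in invasion.

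Total counts lay between 87739734 and 150921436 reads per library. The epithelial markers (KRT8, KRT18, KRT19, EPCAM and CDH1) were all present, with a summed level of 2261 to 2350.4 CPM in DOX-positive libraries and 813 to 864 CPM in DOX-negative libraries. Summed leukocyte markers had 0.569 to 0.676 CPM in DOX-positive libraries and at least 1.17 CPM in DOX-negative libraries, with CD3E at 0. That fall was mostly CD14, with 0.286 CPM in DOX-positive cells and 1.02 CPM in DOX-negative cells. CD68 went the other way (0.268 CPM in DOX-positive cells, 0.135 CPM in DOX-negative cells), as did PTPRC at 6 reads or fewer. Summed fibroblast markers had 4.64 to 4.98 CPM in DOX-positive libraries and 6.18 to 7.37 CPM in DOX-negative libraries, mostly COL1A1, with LUM at 0. Summed endothelial markers had 0.417 to 0.498 CPM in DOX-positive libraries and 0.765 to 0.859 CPM in DOX-negative libraries. That fall was mostly KDR (0.125 CPM in DOX-positive cells, 0.425 CPM in DOX-negative cells), while VWF was slightly higher (0.171 and 0.146 CPM). These sums moved with the groups, and their part in the results below was not tested. The cultures are bulk samples, in which fewer cells of a type and less RNA per cell cannot be told apart.

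Of the 45 genes, 38 passed the filter for testing and 7 did not. The 7 were WNT1, WNT2, WNT6, WNT8A, WNT9B, FZD10 and LGR5, with 0 to 8 reads per library, and 4 of them had 0 reads in every DOX-positive library. A count of 0 allows up to 3 reads, which is between 0.0204 and 0.0328 CPM depending on the library. Among the 38 tested, 30 passed at an edgeR adjusted p under 0.05, against 56.5% of all 24695 genes tested. Of the 30, 9 were higher and 21 lower in DOX-positive cells, where 27.6% of all genes tested were higher and 28.9% lower. A change of at least 2-fold was found in 4 that were higher (3.56% of all genes) and 6 that were lower (9.38% of all genes). The DOX-positive and DOX-negative values did not overlap in 30 of the 38, and in 62.4% of all genes tested. The median log2 fold change was -0.27 over the 38 and -0.042 over all genes tested. Abundant genes pass more often. Of the 28 members with a mean of at least 1 CPM in either group, 8 were higher and 18 lower, against 40.5% higher and 32.8% lower among all genes at that level, and 6 changed at least 2-fold, against 8.94%. With libraries scaled by size alone, which moved the median of all genes by -0.14 on the log2 scale, 8 members were higher and 25 lower. All genes then split into 4689 higher and 9579 lower, against 6825 higher and 7132 lower with TMM.

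**Figure D1:**
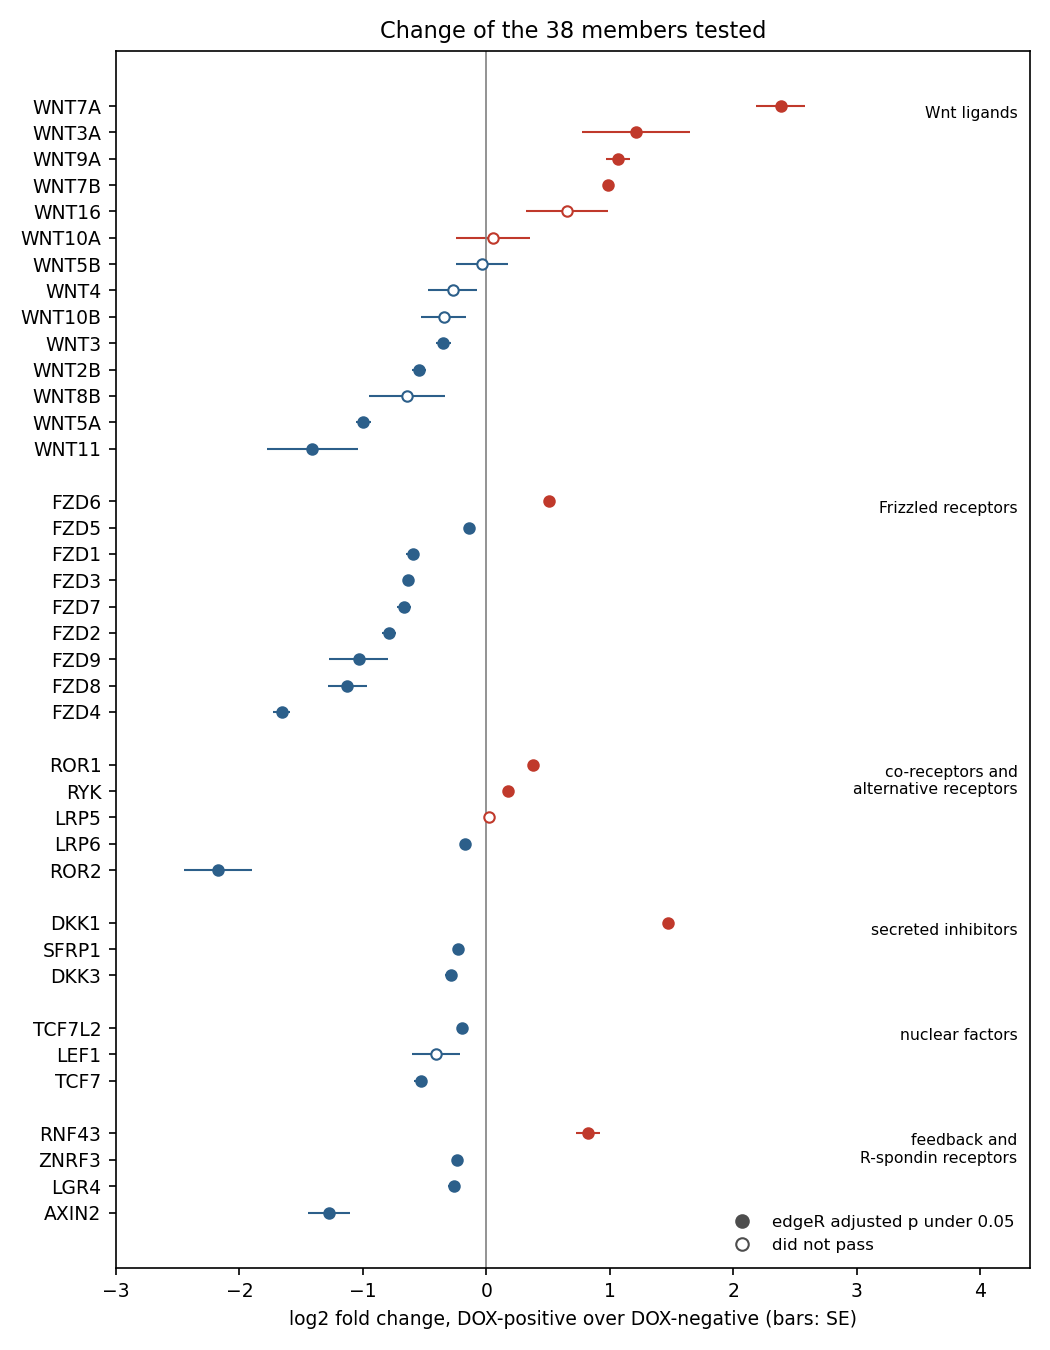
Each point is the log2 fold change of one of the 38 tested genes, DOX-positive over DOX-negative, with its standard error as a bar, grouped by role. Filled points passed at an edgeR adjusted p under 0.05. Points left of 0 are lower in DOX-positive cells, and 8 of the 9 Frizzled receptors lie there, while ligands lie on both sides.

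Windows of 250 bases upstream of an annotated start were at hand for 31 of the 45 genes (38 windows, RefSeq, GRCh38.p14). They are shown for the inhibitor DKK1, the ligand WNT9A and the receptor ROR1, which were higher in DOX-positive cells, and for the receptors FZD4 and ROR2, which were lower. Windows were searched on both strands for the TCF/LEF words CTTTGAA and CTTTGAT and for the interferon-gamma-activated (GAS) pattern TTCNNNGAA, and capitals mark a match. The windows are chr10:52314031-52314280 (plus strand) for DKK1, chr1:227947933-227948182 (minus strand) for WNT9A, chr1:63773767-63774016 (plus strand) for ROR1, chr11:86955396-86955645 (minus strand) for FZD4 and chr9:91950229-91950478 (minus strand) for ROR2.
DKK1: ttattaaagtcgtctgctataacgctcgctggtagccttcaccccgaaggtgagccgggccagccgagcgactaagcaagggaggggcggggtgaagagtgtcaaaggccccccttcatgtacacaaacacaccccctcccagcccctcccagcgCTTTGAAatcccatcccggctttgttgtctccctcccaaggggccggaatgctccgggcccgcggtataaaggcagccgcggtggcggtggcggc
WNT9A: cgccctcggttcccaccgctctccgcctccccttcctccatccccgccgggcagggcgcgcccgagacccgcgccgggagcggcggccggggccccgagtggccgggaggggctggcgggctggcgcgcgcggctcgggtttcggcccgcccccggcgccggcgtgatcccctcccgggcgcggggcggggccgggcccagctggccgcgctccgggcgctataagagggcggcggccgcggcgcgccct
ROR1: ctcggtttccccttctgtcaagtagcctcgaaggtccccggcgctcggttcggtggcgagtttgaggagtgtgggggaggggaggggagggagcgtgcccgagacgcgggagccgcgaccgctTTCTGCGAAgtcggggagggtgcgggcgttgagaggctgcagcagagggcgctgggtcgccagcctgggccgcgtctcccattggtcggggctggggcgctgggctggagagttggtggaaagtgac
FZD4: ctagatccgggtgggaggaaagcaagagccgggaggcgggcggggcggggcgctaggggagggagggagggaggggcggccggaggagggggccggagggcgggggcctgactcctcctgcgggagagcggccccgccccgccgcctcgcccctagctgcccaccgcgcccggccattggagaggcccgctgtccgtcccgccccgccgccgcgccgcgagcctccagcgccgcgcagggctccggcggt
ROR2: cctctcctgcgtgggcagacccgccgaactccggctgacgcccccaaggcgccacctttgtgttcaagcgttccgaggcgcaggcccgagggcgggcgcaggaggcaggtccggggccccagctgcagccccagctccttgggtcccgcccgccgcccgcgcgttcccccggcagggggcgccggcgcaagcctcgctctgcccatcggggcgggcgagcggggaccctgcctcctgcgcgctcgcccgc
The TCF/LEF word occurred in 1 of the 38 windows, that of DKK1, where it begins at position -95 (the base before the start is -1), and in 5.94% of 35116 windows of all genes. The GAS pattern occurred in 1 of the 38 windows, that of ROR1, at position -127, and in 6.57% of all windows. G and C made up 62.8% of the DKK1 window, 84.4% of WNT9A, 69.2% of ROR1, 80.8% of FZD4 and 78.0% of ROR2. The windows with a match are all among those shown. Each pattern occurred in 2.63% of member windows, which is 1 window, too few to compare with the share in all windows. A match is a string of letters and not a measured binding site.

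The ligands moved in both directions: of 14 tested, 4 rose, 4 fell and 6 did not pass (4 rose and 6 fell with library size alone). Of the 14, 57.1% were called, against 56.5% of all genes tested (27.6% higher, 28.9% lower), so these counts lie near the background. WNT7B (ENSG00000188064.10, chromosome 22, 45920362 to 45977129, minus strand, GRCh38), a ligand that can signal through beta-catenin, had 95.2, 92.5 and 96.5 CPM in DOX-positive cells and 50.3, 47.0 and 46.7 CPM in DOX-negative cells. The groups lay apart, with a 1.97-fold higher level in DOX-positive cells (log2 fold change 0.98, SE 0.035, edgeR adjusted p = 6.77e-13). WNT7A, its close relative, had 1.46, 1.38 and 1.19 CPM in DOX-positive cells, against 0.262, 0.266 and 0.240 CPM in DOX-negative cells. It rose 5.22-fold (log2 fold change 2.38, SE 0.20, edgeR adjusted p = 2.73e-08), at 118 to 199 reads in DOX-positive libraries and 22 to 39 reads in DOX-negative libraries. WNT9A had 6.2, 6.46 and 6.04 CPM in DOX-positive cells and 2.86, 3.31 and 2.73 CPM in DOX-negative cells, a 2.09-fold rise with no overlap (log2 fold change 1.06, SE 0.095, edgeR adjusted p = 6.06e-08). WNT3A, a ligand widely used to activate beta-catenin in culture, had 16, 28 and 32 reads in DOX-positive libraries and 7, 14 and 11 reads in DOX-negative libraries. Its rise (log2 fold change 1.21, SE 0.44, edgeR adjusted p = 0.0262) lost its call without DOX-positive replicate 3 (adjusted p = 0.156), DOX-negative replicate 1 (0.0793) or DOX-negative replicate 2 (0.0647). WNT9A and WNT3A lie beside each other on chromosome 1, on opposite strands, 59152 bases apart with 0 protein-coding genes between them.

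**Figure D2:**
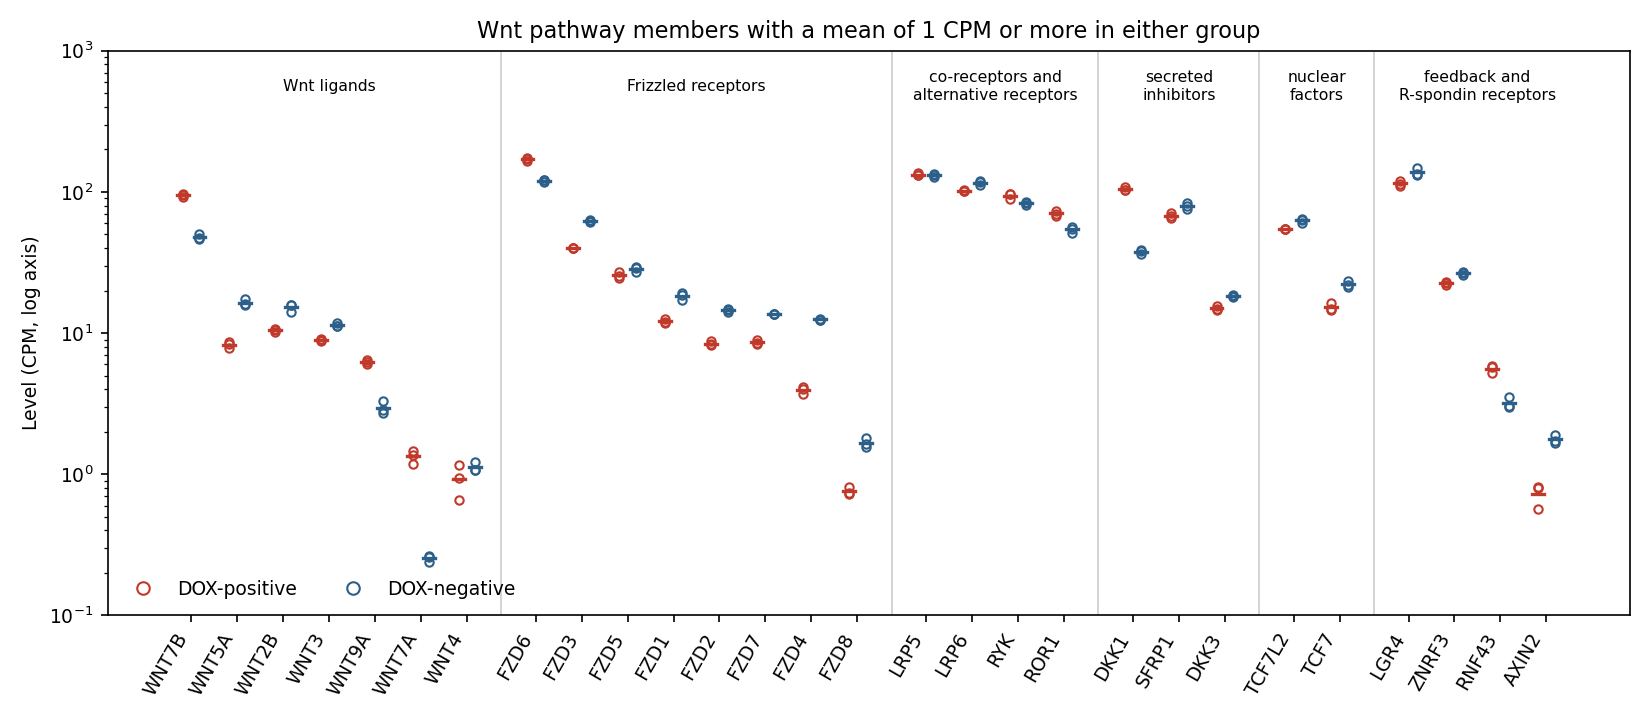
Level in CPM (log axis) of the 28 genes with a mean of at least 1 CPM in either group, by role. Each circle is a library, red for DOX-positive and blue for DOX-negative, and bars are means of 3. WNT7B and DKK1 lie higher in DOX-positive cells, and FZD4 and AXIN2 lie lower, without overlap.

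The ligands that fell included WNT5A, a mainly beta-catenin-independent ligand that binds ROR receptors. WNT5A (ENSG00000114251.14, chromosome 3, 55465715 to 55490539, minus strand, GRCh38) had 8.37, 7.79 and 8.62 CPM in DOX-positive cells, against 16.0, 15.9 and 17.4 CPM in DOX-negative cells. It was 1.99-fold lower in DOX-positive cells (log2 fold change -1.0, SE 0.060, edgeR adjusted p = 4.48e-10). WNT2B, which can signal through beta-catenin, had 10.2, 10.5 and 10.8 CPM in DOX-positive cells and 15.9, 15.8 and 14.1 CPM in DOX-negative cells, a lower level without overlap (log2 fold change -0.55, SE 0.059, edgeR adjusted p = 5.76e-07). WNT2B shares 2661 exonic bases with ST7L on the other strand, and the strand setting of the counting is not known here, so its value is uncertain. WNT3 had 9.14, 8.91 and 8.82 CPM in DOX-positive cells and 11.8, 11.2 and 11.2 CPM in DOX-negative cells, a smaller fall without overlap (log2 fold change -0.35, SE 0.058, edgeR adjusted p = 6.86e-05). WNT11, a beta-catenin-independent ligand, had 24, 30 and 6 reads in DOX-positive libraries and 50, 61 and 40 reads in DOX-negative libraries, and it fell (log2 fold change -1.41, SE 0.37, edgeR adjusted p = 0.00365). The 6 ligands that did not pass averaged 1.12 CPM or less in both groups. Their log2 fold changes were -0.27 (SE 0.20) for WNT4, -0.035 (SE 0.21) for WNT5B, -0.64 (SE 0.30) for WNT8B, 0.056 (SE 0.30) for WNT10A, -0.35 (SE 0.18) for WNT10B and 0.65 (SE 0.33) for WNT16. Some passed under an alternative. With library size alone WNT8B (edgeR adjusted p = 0.039) and WNT10B (0.0321) were lower, WNT8B was also lower without DOX-negative replicate 3 (0.0385), and WNT16 was higher without DOX-negative replicate 1 (0.0369).

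Levels of different genes were compared per length, as TPM (the read count over gene length, scaled to the same sum in every library). WNT7B had the highest mean TPM of the 19 ligands in both groups, with 59.8 ± 1.04 TPM in DOX-positive cells and 35.2 ± 2.68 TPM in DOX-negative cells (SD, n = 3 each), and WNT3 followed, with 6.73 ± 0.0848 TPM in DOX-positive cells and 9.97 ± 0.626 TPM in DOX-negative cells. Below them the order differed. It ran WNT9A, WNT5A and WNT2B in DOX-positive cells and WNT5A, WNT2B and WNT9A in DOX-negative cells, each clear of the next. Of the summed TPM of the 19 ligands, WNT7B made up 72.3%, 72.1% and 73.2% in DOX-positive libraries and 53.9%, 52.8% and 52.9% in DOX-negative libraries. WNT5A made up 4.37%, 4.17% and 4.49% in DOX-positive libraries and 11.8%, 12.3% and 13.6% in DOX-negative libraries. Neither share overlapped between the groups, and each gave a two-sided exact permutation p of 0.1 (0.105 adjusted over 20 shares), the smallest that 3 against 3 allows. Every one of the 20 shares except that of WNT10A (exact permutation p = 0.3) gave this value, so it does not mark out WNT7B or WNT5A. Shares are parts of one whole, so a larger share of WNT7B lowers those of other ligands. The summed TPM of the ligands was 81.7 to 83.4 TPM in DOX-positive libraries and 62.5 to 70.9 TPM in DOX-negative libraries, also without overlap. A share within a library does not depend on how libraries are scaled. The sum does, and TPM does not use the TMM scaling.

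**Figure D3:**
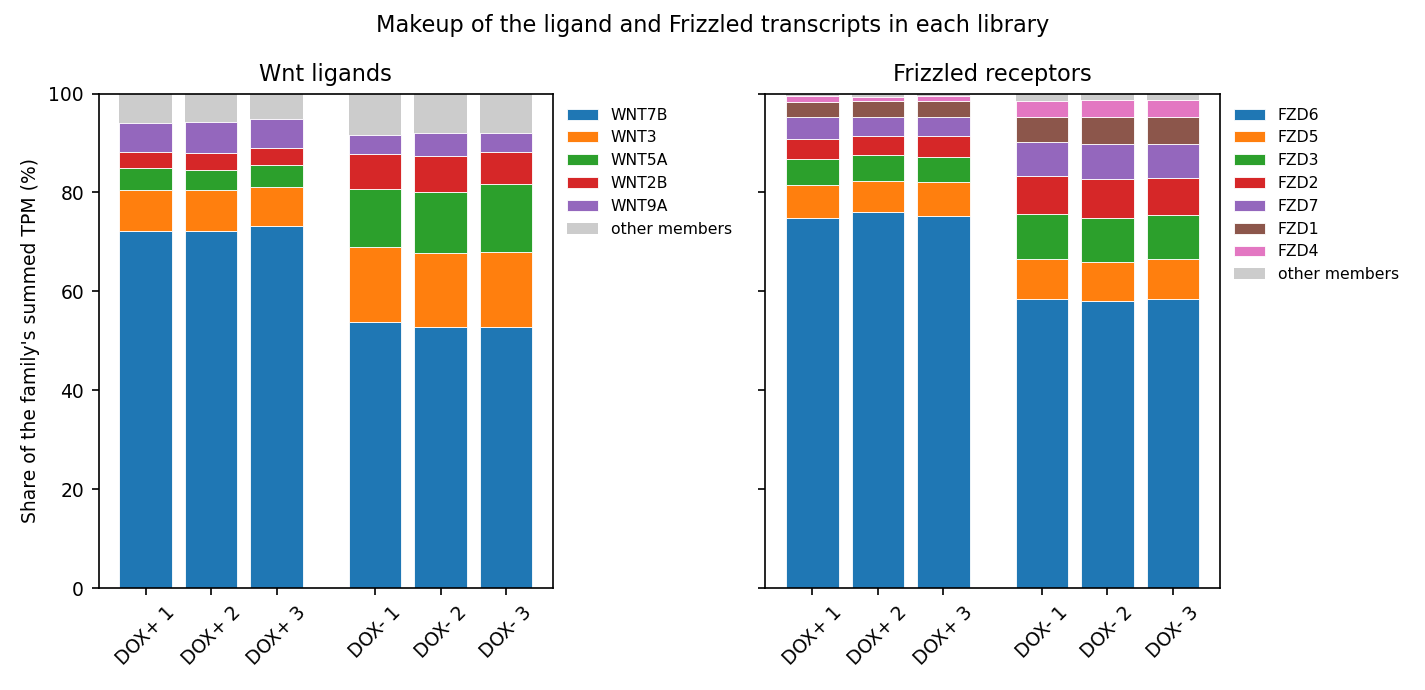
Share of each gene in the summed TPM of the 19 ligands (left) and the 10 Frizzled receptors (right), with a bar per library, DOX-positive then DOX-negative. WNT7B and FZD6, the bottom segments, take 72.1% to 73.2% and 74.8% to 76.0% in DOX-positive libraries, against 52.8% to 53.9% and 58.0% to 58.5% in DOX-negative libraries.

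Of the Frizzled receptors, 8 of the 9 tested were lower and 1, FZD6, was higher in DOX-positive cells, with a median log2 fold change of -0.67. Of all genes tested, 28.9% were lower and 27.6% higher, with a median of -0.042. Of all genes with a mean of at least 1 CPM, as 8 of the 9 receptors had, 32.8% were lower and 40.5% higher. FZD4 (ENSG00000174804.4, chromosome 11, 86945679 to 86955391, minus strand, GRCh38), which also receives the non-Wnt ligand norrin, had 4.18, 4.02 and 3.69 CPM in DOX-positive cells and 12.7, 12.5 and 12.4 CPM in DOX-negative cells. It was 3.15-fold lower in DOX-positive cells (log2 fold change -1.66, SE 0.069, edgeR adjusted p = 4.56e-12). FZD4 shares 1399 exonic bases on the other strand with PRSS23, which had 217221 reads over the 6 libraries against 5614 for FZD4, so its value is uncertain. FZD8 had 0.740, 0.817 and 0.727 CPM in DOX-positive cells, against 1.56, 1.64 and 1.81 CPM in DOX-negative cells, a 2.18-fold lower level (log2 fold change -1.13, SE 0.16, edgeR adjusted p = 1.23e-05). FZD9 was 2.05-fold lower, with 0.331 ± 0.0135 CPM in DOX-positive cells and 0.684 ± 0.143 CPM in DOX-negative cells (SD, n = 3 each, edgeR adjusted p = 0.00141). The related receptors FZD1, FZD2 and FZD7 were all lower, without overlap, at an edgeR adjusted p of 9.24e-08 or less. FZD1 had 12, 11.7 and 12.6 CPM in DOX-positive cells and 17.1, 18.6 and 19.3 CPM in DOX-negative cells (log2 fold change -0.60). FZD2 had 8.33, 8.24 and 8.75 CPM in DOX-positive cells and 14.8, 14.6 and 14.2 CPM in DOX-negative cells (log2 fold change -0.79). FZD7 had 8.96, 8.41 and 8.53 CPM in DOX-positive cells and 13.6, 13.8 and 13.7 CPM in DOX-negative cells (log2 fold change -0.67).

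FZD3, which acts with planar polarity proteins, had 40.1, 40.2 and 40.1 CPM in DOX-positive cells and 63.1, 61.5 and 62.6 CPM in DOX-negative cells, a clear fall (log2 fold change -0.64, SE 0.031, edgeR adjusted p = 2.58e-11). FZD5 had 25.6, 24.6 and 27.3 CPM in DOX-positive cells and 29.2, 27.3 and 28.9 CPM in DOX-negative cells, and these groups overlapped. Its small fall (log2 fold change -0.14, SE 0.044, edgeR adjusted p = 0.0132) lost its call with DESeq2 size factors (adjusted p = 0.0665) and with the DESeq2 test (0.0961). It was also lost without DOX-positive replicate 1 (0.0513) or 2 (0.112) and without DOX-negative replicate 1 (0.119) or 3 (0.111). FZD6 (ENSG00000164930.12, chromosome 8, 103298433 to 103332866, plus strand, GRCh38), a receptor linked to planar polarity and to restraint of beta-catenin signals, went the other way. It had 165, 173 and 172 CPM in DOX-positive cells and 121, 117 and 121 CPM in DOX-negative cells, a 1.42-fold higher level (log2 fold change 0.51, SE 0.033, edgeR adjusted p = 1.37e-09). FZD6 stayed higher and called under the 3 other scalings, and the 7 lower receptors other than FZD5 stayed lower and called. Per length FZD6 led the family, with 134 ± 5.20 TPM in DOX-positive cells and 109.8 ± 6.41 TPM in DOX-negative cells (SD, n = 3 each). It made up 74.8%, 76.0% and 75.2% of the summed Frizzled TPM in DOX-positive libraries, against 58.5%, 58.0% and 58.5% in DOX-negative libraries (two-sided exact permutation p = 0.1, the smallest possible). Every Frizzled share compared gave this p. The summed TPM of the family overlapped between the groups, at 172 to 182 TPM in DOX-positive libraries and 177 to 196 TPM in DOX-negative libraries. TPM does not use the TMM scaling of the fold changes, and a sum depends on that choice. LRP5, for example, had 132.8 CPM in DOX-positive cells and 131.0 CPM in DOX-negative cells, but 68.9 TPM and 79.0 TPM. Whether the sums overlap on the TMM scale was not tested.

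Of the 5 co-receptors and alternative receptors, 2 rose, 2 fell and 1 did not pass, where 27.6% of all genes tested were higher and 28.9% lower. Of all genes with a mean of at least 1 CPM, as 4 of the 5 had, 40.5% were higher and 32.8% lower. LRP5 did not pass, with 131, 131 and 136 CPM in DOX-positive cells and 133, 128 and 131 CPM in DOX-negative cells (log2 fold change 0.019, SE 0.033, edgeR adjusted p = 0.642). With libraries scaled by size alone it read -0.12 and passed (edgeR adjusted p = 0.0017). LRP6 had 102, 102 and 103 CPM in DOX-positive cells and 117, 111 and 119 CPM in DOX-negative cells, a small fall without overlap (log2 fold change -0.18, SE 0.034, edgeR adjusted p = 0.000292). The ROR kinases, receptors for WNT5A, moved in opposite directions. ROR1 had 70.1, 68.0 and 73.5 CPM in DOX-positive cells and 54.7, 51.5 and 56.9 CPM in DOX-negative cells, and it rose 1.30-fold (log2 fold change 0.38, SE 0.039, edgeR adjusted p = 4.05e-07). ROR2 had 0.304, 0.180 and 0.182 CPM in DOX-positive cells and 1.31, 0.879 and 0.798 CPM in DOX-negative cells, and it was 4.5-fold lower in DOX-positive cells (log2 fold change -2.17, SE 0.27, edgeR adjusted p = 3.72e-06). Per length, ROR1 stood at 33.7 TPM in DOX-positive cells and 30.2 TPM in DOX-negative cells, and ROR2 at 0.121 TPM in DOX-positive cells and 0.634 TPM in DOX-negative cells. RYK, a Wnt-binding pseudokinase, had 88.9, 95.9 and 97.4 CPM in DOX-positive cells and 83.6, 81.0 and 84.9 CPM in DOX-negative cells. Its rise (log2 fold change 0.18, SE 0.038, edgeR adjusted p = 0.000672) lost its call with library size alone (log2 fold change 0.035, adjusted p = 0.401).

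Among the 3 secreted inhibitors DKK1 rose and the other 2 fell, where 27.6% of all genes tested were higher and 28.9% lower. All 3 had a mean of at least 1 CPM, a level at which 40.5% of all genes were higher and 32.8% lower. DKK1 (ENSG00000107984.10, chromosome 10, 52314296 to 52318042, plus strand, GRCh38), which binds LRP5 and LRP6 and is itself a known target of beta-catenin, had 103, 108 and 104 CPM in DOX-positive cells and 38.9, 36.4 and 38.2 CPM in DOX-negative cells. This was a 2.78-fold rise with a wide gap between the groups (log2 fold change 1.47, SE 0.035, edgeR adjusted p = 5.13e-15). SFRP1, which binds Wnt proteins directly, had 67.1, 65.2 and 71.0 CPM in DOX-positive cells and 79.8, 75.3 and 83.1 CPM in DOX-negative cells, a small fall (log2 fold change -0.23, SE 0.040, edgeR adjusted p = 0.000127). DKK3, a divergent member of the DKK family, had 15 ± 0.596 CPM in DOX-positive cells and 18.3 ± 0.313 CPM in DOX-negative cells (SD, n = 3 each), and it also fell (log2 fold change -0.29, SE 0.048, edgeR adjusted p = 7.88e-05). Per length, DKK1 stood at 151.5 TPM and SFRP1 at 45.9 TPM in DOX-positive cells, whereas in DOX-negative cells they overlapped, at 63.5 TPM for DKK1 and 62.6 TPM for SFRP1.

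Of the 4 feedback genes and R-spondin receptors tested, 3 fell and 1, RNF43, rose, where 28.9% of all genes tested were lower and 27.6% higher. All 4 had a mean of at least 1 CPM, a level at which 32.8% of all genes were lower and 40.5% higher. AXIN2 (ENSG00000168646.13, chromosome 17, 65528563 to 65561647, minus strand, GRCh38), a widely used readout of beta-catenin signalling, had 0.569, 0.810 and 0.797 CPM in DOX-positive cells and 1.91, 1.72 and 1.66 CPM in DOX-negative cells. It was 2.42-fold lower in DOX-positive cells without overlap (log2 fold change -1.28, SE 0.17, edgeR adjusted p = 8.22e-06), at 60 to 117 reads in DOX-positive libraries and 152 to 253 reads in DOX-negative libraries. RNF43 had 5.71, 5.82 and 5.25 CPM in DOX-positive cells and 3.04, 2.98 and 3.51 CPM in DOX-negative cells, a 1.77-fold rise (log2 fold change 0.82, SE 0.097, edgeR adjusted p = 1.56e-06). ZNRF3, its partner ligase, had 22.0, 23.0 and 22.6 CPM in DOX-positive cells and 26.7, 25.9 and 27.1 CPM in DOX-negative cells, a small fall (log2 fold change -0.24, SE 0.039, edgeR adjusted p = 7.95e-05). LGR4, an R-spondin receptor, had 111, 114 and 120.1 CPM in DOX-positive cells and 134, 132 and 148 CPM in DOX-negative cells, a fall of like size (log2 fold change -0.27, SE 0.044, edgeR adjusted p = 6.45e-05). LGR5 stayed at 4 reads or fewer in each library. AXIN2 shares 1316 exonic bases, and RNF43 4326, with a same-strand coding gene of the annotation. The gene sharing bases with AXIN2 had 0 reads over the 6 libraries, against 851 for AXIN2. The gene sharing bases with RNF43 had 40 reads, against 3023 for RNF43. How shared reads were treated is not known here, so the values of AXIN2 and RNF43 are uncertain.

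Of the 3 nuclear factors 2 fell and 1 did not pass, where 28.9% of all genes tested were lower. Of all genes with a mean of at least 1 CPM, as 2 of the 3 had, 32.8% were lower. TCF7 had 14.6, 14.9 and 16.4 CPM in DOX-positive cells and 21.2, 21.8 and 23.3 CPM in DOX-negative cells, a lower level without overlap between the groups (log2 fold change -0.53, SE 0.053, edgeR adjusted p = 2.26e-07). TCF7 shares 210 exonic bases on the other strand with SKP1, which had 90466 reads over the 6 libraries against 12772 for TCF7, so its value is uncertain. TCF7L2, the most abundant of the 3 per length, had 54.5, 55.0 and 54.9 CPM in DOX-positive cells and 63.4, 60.5 and 64.6 CPM in DOX-negative cells, a smaller fall (log2 fold change -0.20, SE 0.033, edgeR adjusted p = 7.12e-05). LEF1, often induced by beta-catenin, had 0.863, 0.713 and 0.616 CPM in DOX-positive cells and 0.815, 1.14 and 0.940 CPM in DOX-negative cells. These overlapped, and LEF1 did not pass (log2 fold change -0.41, SE 0.20, edgeR adjusted p = 0.0904). With library size alone LEF1 read -0.55 and passed (edgeR adjusted p = 0.0285), and all 3 nuclear factors were then lower.

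The rest of the pathway was described with 82 further genes, of which 70 were tested, 24 were higher and 28 lower. Of the 70, 74.3% were called, against 56.5% of all genes tested (27.6% higher, 28.9% lower). A change of at least 2-fold was found in 2 that were higher and 12 that were lower (3.56% and 9.38% of all genes tested). Of the 82, 62 had a mean of at least 1 CPM, a level at which 40.5% of all genes were higher and 32.8% lower. Calls were not counted among those 62 alone, and the counts by list are given as description. NOTUM and APCDD1 are each counted in both of their lists. Of 7 genes for Wnt secretion and release, 5 were tested, 2 rose and 2 fell (1 rose and 2 fell with library size alone). PORCN, the acyltransferase that lipid-modifies Wnt proteins, had 16.1 ± 1.12 CPM in DOX-positive cells and 9.35 ± 0.175 CPM in DOX-negative cells, a 1.72-fold rise (SD, n = 3 each, edgeR adjusted p = 8.83e-09). NOTUM, an enzyme that removes the lipid and is a known beta-catenin target, was 2.60-fold lower in DOX-positive cells, and TRABD2B, a protease that inactivates Wnt proteins, was 6.63-fold lower, both at 2.09 CPM or less in each library. Of 13 other inhibitors 6 were tested, 1 rose and 3 fell (0 rose and 5 fell with library size alone). Those that fell included APCDD1 (log2 fold change -1.99, SE 0.18), KREMEN1 (-0.19, SE 0.040) and SFRP4 (-1.16, SE 0.40), and the SFRP4 call was lost without DOX-positive replicate 3 (adjusted p = 0.0782), DOX-negative replicate 2 (0.0627) or DOX-negative replicate 3 (0.078). Of the R-spondins and LGR6, 3 of 5 were tested, 2 fell and 0 rose. RSPO3, an R-spondin, had 14.9 ± 1.03 CPM in DOX-positive cells and 19.5 ± 1.47 CPM in DOX-negative cells (edgeR adjusted p = 3.72e-05). RSPO4 was 5.68-fold lower in DOX-positive cells, and LGR6 did not pass (0.29, SE 0.15), except without DOX-negative replicate 1 (edgeR adjusted p = 0.0439).

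**Figure D4:**
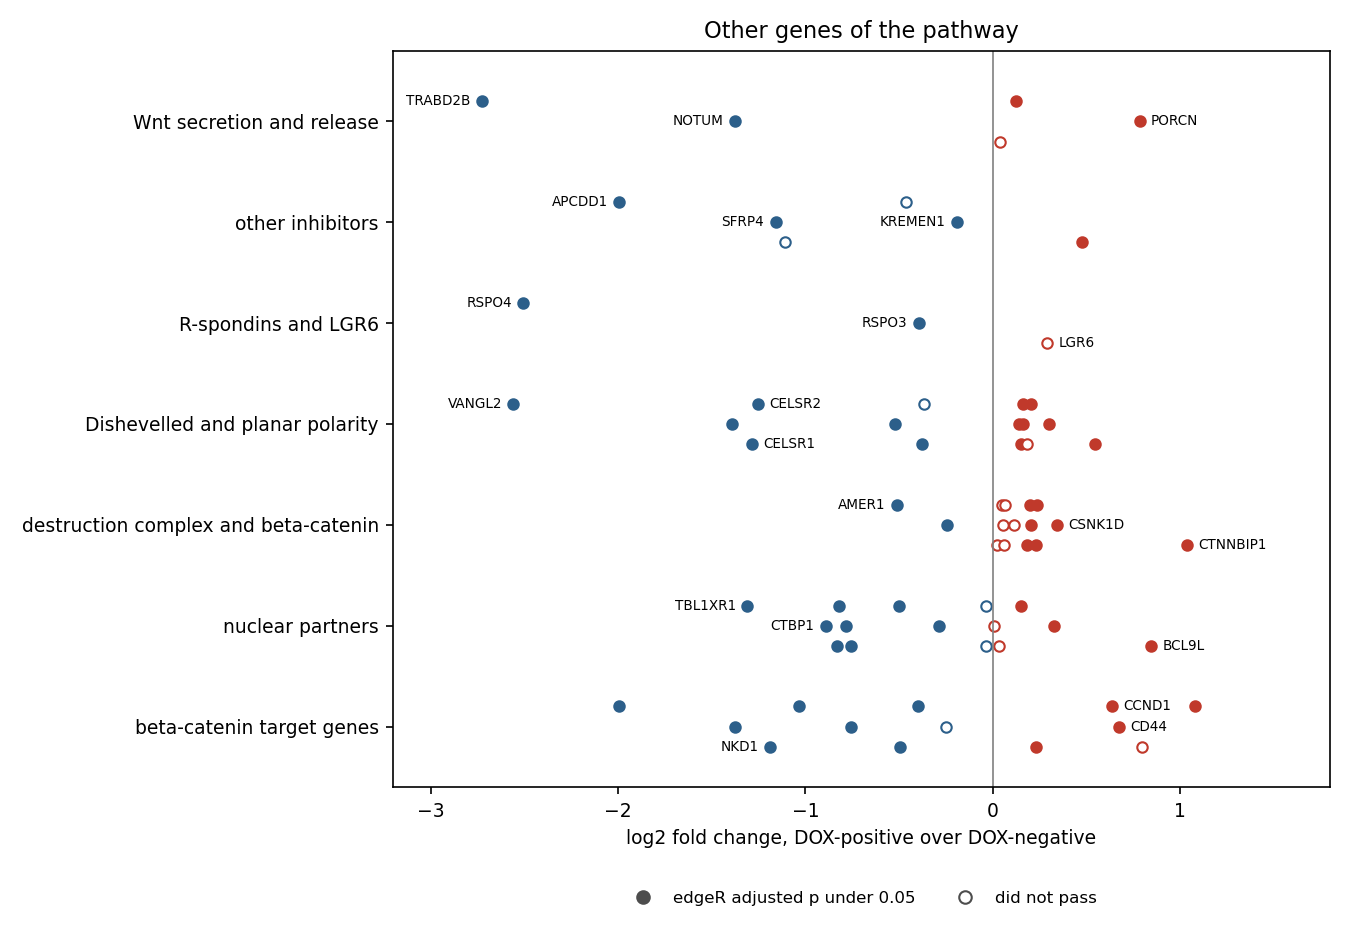
Log2 fold change, DOX-positive over DOX-negative, of the 70 tested genes in 7 further lists of the pathway. NOTUM and APCDD1 are drawn in both of their lists. Filled points passed at an edgeR adjusted p under 0.05, and up to 3 genes of a list are named. VANGL2, CELSR1 and CELSR2 lie left of 0.

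Of 15 Dishevelled and planar polarity genes 7 rose and 6 fell. Of all genes with a mean of at least 1 CPM, as 14 of the 15 had, 40.5% were higher and 32.8% lower. With library size alone, 2 of the 15 rose and 7 fell, and upper-quartile scaling gave 5 higher and 7 lower. VANGL2, a core membrane protein of planar polarity, had 2.74, 3.11 and 2.68 CPM in DOX-positive cells and 16.7, 15.9 and 18.1 CPM in DOX-negative cells, a 5.90-fold lower level (edgeR adjusted p = 8.14e-14). The polarity cadherins CELSR1 and CELSR2 were lower by 2.44-fold and 2.38-fold. The third of them, CELSR3, named after its values were seen, was slightly higher (log2 fold change 0.16, SE 0.035, edgeR adjusted p = 0.000824), by about as much as library size alone moved the median of all genes (-0.14). Of 15 genes of the destruction complex and beta-catenin, all with a mean of at least 1 CPM, 7 rose and 2 fell. With library size alone, 4 of these 15 rose and 6 fell. CTNNBIP1, an inhibitor of beta-catenin's contact with TCF factors, had 26.1, 28.0 and 26.8 CPM in DOX-positive cells and 13.4, 13.3 and 12.7 CPM in DOX-negative cells, a 2.05-fold rise (edgeR adjusted p = 8.58e-12). The kinase gene CSNK1D rose (log2 fold change 0.34), and AMER1, a regulator of the complex, fell (-0.51). The beta-catenin gene CTNNB1, named after its values were seen, fell as well (log2 fold change -0.24, SE 0.034, edgeR adjusted p = 9.93e-06), with 211 ± 4.69 CPM in DOX-positive cells and 249 ± 7.43 CPM in DOX-negative cells (SD, n = 3 each).

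Of 15 nuclear partners 3 rose and 8 fell (2 rose and 12 fell with library size alone). All 15 had a mean of at least 1 CPM, a level at which 40.5% of all genes were higher and 32.8% lower. TBL1XR1, a corepressor exchange factor, had 149, 155 and 150.2 CPM in DOX-positive cells and 383, 366 and 377 CPM in DOX-negative cells, a 2.48-fold lower level, and the corepressor CTBP1 was 1.85-fold lower. BCL9L, a coactivator of beta-catenin, rose 1.8-fold, with 467 ± 15.1 CPM in DOX-positive cells and 259.6 ± 8.69 CPM in DOX-negative cells (SD, n = 3 each, edgeR adjusted p = 3.38e-12). It shares 3925 exonic bases with CXCR5 on the other strand, which had 17 reads over the 6 libraries. Of 14 genes commonly induced by beta-catenin 13 were tested, 4 rose and 7 fell (3 rose and 8 fell with library size alone). Of the 13, 10 had a mean of at least 1 CPM, and of all genes tested 27.6% were higher and 28.9% lower. Besides NKD1, the target genes that fell were NOTUM (log2 fold change -1.38), APCDD1 (-1.99), TNFRSF19 (-1.04), TBX3 (-0.76), NKD2 (-0.49) and SALL4 (-0.40). Of these TNFRSF19, TBX3, NKD2 and SALL4 were named after their values were seen. NKD1, a feedback inhibitor, had 4.29, 4.42 and 5.0 CPM in DOX-positive cells and 9.66, 10.6 and 10.9 CPM in DOX-negative cells, a 2.28-fold lower level (edgeR adjusted p = 1.5e-09). The 4 that rose were CCND1, which encodes cyclin D1 (log2 fold change 0.64, SE 0.028), the adhesion receptor gene CD44 (0.68, SE 0.031), MYC (0.23, SE 0.031) and FGF9 (1.08, SE 0.44), of which MYC and FGF9 were named after their values were seen. The FGF9 call was lost without any 1 of the 6 libraries and under other settings, with an adjusted p from 0.0434 to 0.231 over the alternatives that gave a value. CSNK1D, CTBP1 and CCND1 also share exonic bases with a gene on the other strand (SLC16A3, CTBP1-DT and LTO1), so their values are uncertain too. The same limit holds for DKK1 (212 bases with PRKG1-AS1, which had 1582 reads over the 6 libraries) and FZD6 (138 bases with BAALC-AS1, 6750 reads). It also holds for TCF7L2 (300 bases with AL158212.2, 176 reads), and this list of overlaps is not complete.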

How the data were processed

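RNA of 6 DU-145 cultures was sequenced from polyadenylated, strand-specific libraries, per the labels' protocols. The deposited table gives a read count per gene and library, whole and not normalized, and each gene's length. CASAVA 1.8.2, STAR 2.7.9a, DESeq2 1.24.0 and GRCh38.p7 appear in the submitters' processing notes, with no roles. Counting tool, annotation and strand setting: not given in the sources used here. Counts of 1 to 10 were even in 64.7% to 67.8% of cases, against 52.6% to 54.1% for counts of 101 to 1000, so some mates may have been counted as separate reads, and floors in reads cover counting error only. Replicates differed beyond sampling noise (chi-square per degree of freedom 6.40 to 20.8 within groups). The labels give triplicates without further detail, so the p-values reflect only spread among these samples, which may be technical.

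Counts were fitted with edgeR 4.0.16 in R 4.3.3 (quasi-likelihood test, group as the sole term, TMM scaling, filterByExpr with a minimum count of 10 and minimum total of 15), with Benjamini-Hochberg adjustment over 24695 genes and a threshold of 0.05. TPM uses the deposited length. SE is the absolute log2 fold change over the square root of F. The fit was tested on simulated data in which few genes changed, in random directions. That test therefore cannot decide between scalings where many genes change, as here. Of the 38 members tested, 36 had 10 or more reads in all 6 libraries. Named genes are all members, MUC1, and up to 3 of each further list with the smallest p. CTNNB1, CELSR3, MYC, FGF9, TNFRSF19, TBX3, NKD2 and SALL4 were named after their values were seen. Positions and exon overlaps come from GENCODE 29 (45 of 45 members matched by ID). Same-numbered libraries did not deviate together (r -0.067 to 0.0095), so numbers were not treated as pairs. Alternatives were other scalings and filters, DESeq2 1.42.0, limma-voom (limma 3.58.1), a replicate block and leaving out each library. The prostate markers are not reported here. The members and lists were chosen with earlier results of these data known.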

Additional observations from a re-analysis of the deposited data

How the results depend on the processing

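Of the 30 members called, 27 kept their direction and call under each alternative that gave a value, and 3 (FZD5, RYK and WNT3A) did not. Over the alternatives 8 or 9 members were higher and 18 to 25 lower, and with 1 library left out 8 to 9 were higher and 20 to 21 lower, with 12807 to 13413 genes called in the whole table. Among members, signs turned in LRP5, WNT10A and WNT5B, which did not pass with TMM. LRP5 read -0.040 with upper-quartile scaling, -0.12 with library size alone and -0.017 with the filter of 1 CPM in 3 libraries. WNT10A read -0.0034 with upper-quartile scaling, -0.088 with library size alone and -0.17 to 0.29 with 1 library left out, and WNT5B read -0.16 to 0.093 with 1 library left out. The cause was not tested. With the replicate block 9 members were higher and 21 lower, 13503 genes were called, and no member's call changed. Halving the counts, an alternative chosen after seeing the data, left 8 higher and 21 lower of 37 members tested. WNT3A, with 7 to 32 reads per library, had an SE of 0.44, against 0.035 for WNT7B.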
